A study of Canis lupus familiaris with 4 samples.

Results

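CD14, CD68, CD86, LAPTM5, TLR2, CYBB, CTSS, C1QC, FCER1G and SPI1 are genes that macrophages express strongly. They were read here in tumour cells kept with macrophages, as a check on macrophage RNA carried into those samples. All probes were taken whose gene name is 1 of these 10 symbols or whose description gives it in brackets, which gave 17 probes of 43603, with 1 spot each. The files name 14046 genes in all. The genes were chosen by earlier readings of these arrays, with their detection flags and co-culture ratios known, so the values of co-culture against single culture are a description and carry no test.

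Stem-like cells had been sorted as Sca1+/EpCAM+/CD44+ from CMT-U27 and P114, cell lines derived from canine mammary cancer. At day 3 they came from co-culture with tumour-associated macrophages or from single culture, which held no added macrophages. Each line had 2 two-colour arrays, and each array held both cultures of the line, with the dyes swapped on the other array. The co-culture was in Cy5 on CMT-U27 replicate 1 and P114 replicate 2, and in Cy3 on CMT-U27 replicate 2 and P114 replicate 1. Replicate numbers follow the order of the records and are not given by the labels. Dyes are those of the channel labels. If the labels of a line were exchanged, every ratio of that line would change sign. How the macrophages were separated from the tumour cells before RNA was extracted is not given in the sources used here. Nothing says whether the arrays of a line held separate extracts, so their spread may be technical.

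Macrophages sense microbes and dying cells through surface receptors, take up what they bind, and digest it in lysosomes. CD14 hands bacterial lipid to Toll-like receptors, among them TLR2. FCER1G is the signalling chain of several Fc receptors, CYBB the catalytic subunit of the phagocyte NADPH oxidase, and C1QC a chain of complement C1q. SPI1 encodes PU.1, the transcription factor that directs myeloid development. In a tumour the C1q genes, SPI1 and FCER1G are usually read as myeloid, while CD14, CD68, CD86 and TLR2 can also be expressed by other cells.

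The probes were 60 bases long, with a GC content between 41.67% and 60%. The sequences that follow belong to C1QC and FCER1G, whose detection in CMT-U27 differed between cultures, and to TLR2, whose probes did not tell the same story. They come from the scanner files, with positions on CanFam3.1. The first C1QC probe lies at chr2:76660782-76660841 and the second at chr2:76660446-76660505, both on the minus strand.
C1QC A_11_P193453: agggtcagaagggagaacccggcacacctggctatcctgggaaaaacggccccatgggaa
C1QC A_11_P0000030996: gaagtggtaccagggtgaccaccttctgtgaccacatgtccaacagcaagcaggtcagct
The FCER1G probes lie at chr38:21268002-21268061 and chr38:21268012-21268190 on the minus strand. Their coordinates span 60 and 179 bases, so the second is placed on the genome with a gap inside the probe. Capitals mark the 50 bases that both hold, so they are not independent readings of the gene.
FCER1G A_11_P0000019889: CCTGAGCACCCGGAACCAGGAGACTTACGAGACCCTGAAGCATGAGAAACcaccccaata
FCER1G A_11_P054946: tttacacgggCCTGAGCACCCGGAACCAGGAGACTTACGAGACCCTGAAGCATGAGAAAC
The TLR2 probes shown lie at chr15:51464976-51465035 and chr15:51464399-51464458 on the plus strand.
TLR2 A_11_P053706: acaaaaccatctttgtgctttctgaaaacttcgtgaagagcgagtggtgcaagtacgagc
TLR2 A_11_P052504: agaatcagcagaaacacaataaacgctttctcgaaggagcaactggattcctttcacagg
Within a gene, no other pair of probes shared a run of more than 7 bases.

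Of all 43603 probes, 57.9% to 65.7% were well above background in each channel of both CMT-U27 arrays and of P114 replicate 2, against 89.4% (co-culture) and 91.7% (single culture) on P114 replicate 1. The flag is that of the scanner software. No spot was saturated. All arrays lay on 1 slide, and it was scanned in 2 scans, with both CMT-U27 arrays in one and both P114 arrays in the other. Scan and line therefore cannot be told apart. The sort markers EPCAM and CD44 were well above background on both arrays of each line in both cultures. Their mean log2 ratios of co-culture over single culture were -0.11 and 0.05 in CMT-U27. In P114 they were -0.06 (SD 0.09) and 0.00 (SD 0.49), with CD44 at 0.35 on replicate 1 and -0.34 on replicate 2.

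In CMT-U27, the 17 probes gave 18 flags well above background in co-culture against 13 in single culture, of 34 probe and array pairs. In P114 there were 22 in co-culture and 22 in single culture, at the same probes of the same arrays, so no probe was detected with macrophages that was not also detected without them. On CMT-U27 replicate 1, 10 probes were detected in co-culture and 5 in single culture, against 65.7% and 57.9% of all probes. On CMT-U27 replicate 2, 8 were detected in each culture, against 61% and 64.5% of all probes. P114 replicate 1 had 15 in each culture, against 89.4% and 91.7%, and P114 replicate 2 had 7 in each, against 60.4% and 61.6%. A co-culture is bulk RNA, in which few macrophages and little RNA per macrophage cannot be told apart.

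**Figure D1:**
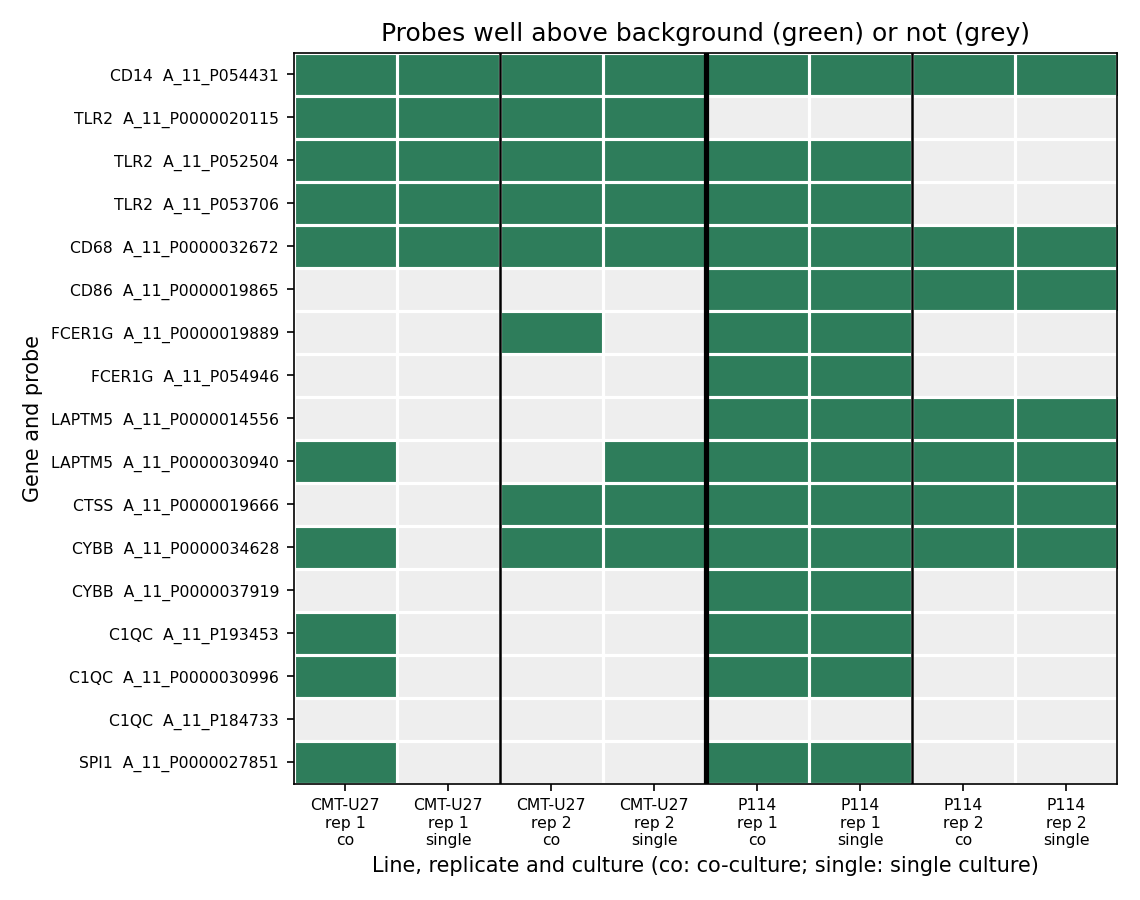
Detection of each of the 17 probes (rows) in each culture of each array (columns), with green for a spot well above background and grey for one that was not. Columns pair co-culture with single culture; the pairs match in every row of P114, while 5 rows of CMT-U27 replicate 1 are green in co-culture alone.

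The unmatched flags were in CMT-U27. On replicate 1, 5 probes were detected in co-culture alone, namely both C1QC probes printed above, the SPI1 probe, CYBB A_11_P0000034628 and LAPTM5 A_11_P0000030940. None of the 17 was detected there in single culture alone (0). Over all probes of that array, 8% were detected in co-culture alone and 0.222% in single culture alone. On replicate 2, where the dyes were exchanged, FCER1G A_11_P0000019889 was detected in co-culture alone and LAPTM5 A_11_P0000030940 in single culture alone, against 0.663% and 4.24% of all probes. Over all probes the excess of flags thus lay with Cy5 on both CMT-U27 arrays, and of the 6 member flags found in co-culture alone, 5 were in Cy5 and 1 in Cy3. None of the 5 probes flagged in co-culture alone on replicate 1 was flagged in co-culture alone on replicate 2.

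Counted over both arrays, 4 of the 17 probes were detected in CMT-U27 co-culture on at least 1 array and in single culture on none (2.68% of all probes), and 0 the other way round (1.29%). They were the C1QC pair, FCER1G A_11_P0000019889 and SPI1, and each was detected on 1 of 2 arrays. In P114, 0 of the 17 met either description, against 0.736% and 2.78% of all probes. Array by array, 0 of the 17 were flagged in co-culture alone (0.693% of all probes on P114 replicate 1 and 1.35% on P114 replicate 2) and 0 in single culture alone (3.03% and 2.47%). The dye's part in these flags was not tested.

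**Figure D2:**
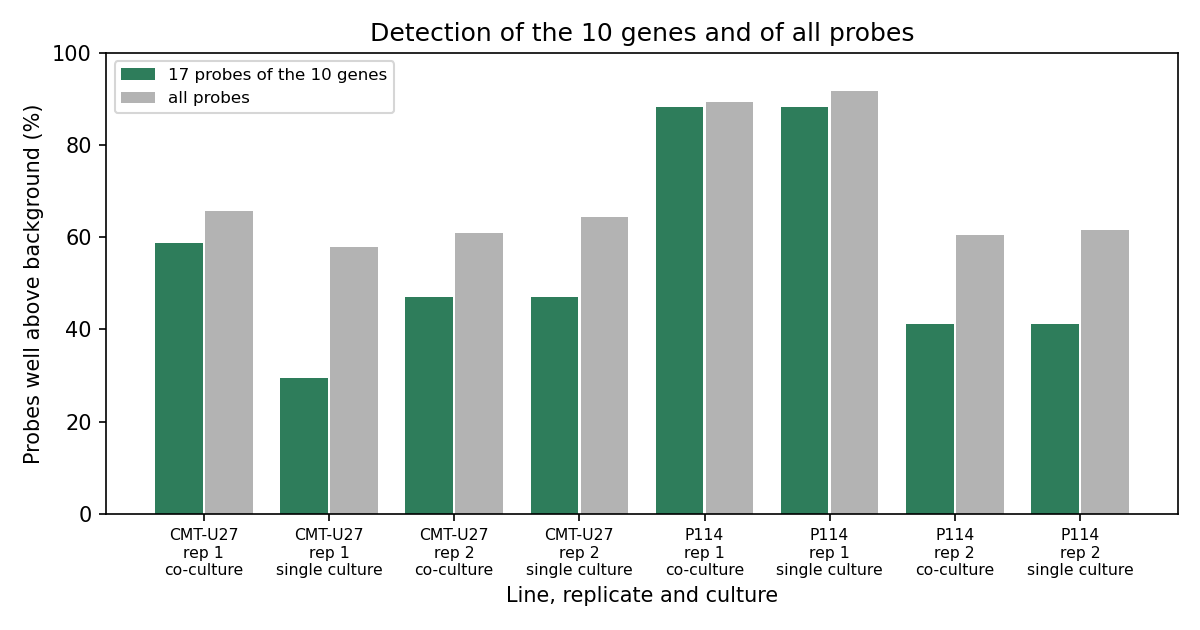
Share of probes well above background (%) in each culture of each array, for the 17 probes (green bars) and for all probes (grey bars). On P114 the 17 probes have equal bars in co-culture and single culture; on CMT-U27 replicate 1 the bars are 58.8% and 29.4%.

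Ratios are given as log2 of co-culture over single culture after normexp background correction with an offset of 50 and loess. Loess sets each probe against others of like brightness, and the offset draws ratios of dim probes towards 0, so the software's own processed signals (background-subtracted, dye-normalized linear intensities) are given beside them. A gene with several probes is shown by its brightest. Over the 10 genes the median log2 ratio was 0.01 in CMT-U27, with a lowest of -0.01 and a highest of 0.20, against a median of 0.02 over all 28692 probes tested. In P114 it was -0.03, between -0.35 and 0.09, against 0.01 over all probes tested. At a Benjamini-Hochberg adjusted p under 0.05, limma called 0% of probes in CMT-U27 (0 of 28692, 928 at an unadjusted p under 0.05) and 0% in P114 (0, with 1758 unadjusted). If arrays were centred on their median and no loess was applied, all tested probes had a median of 0.68 in CMT-U27 and 0.16 in P114. TLR2 then stood at 1.09 and CD68 at 1.29 in CMT-U27 (0.41 and 0.60 relative to that median), and CD14 at 0.34 (-0.34 relative to it). In P114, CD86 then stood at -0.04 (-0.20 relative to it) and TLR2 turned to -0.22. Of the 17 probes, 10 from 7 genes passed the filter on dim probes. C1QC, FCER1G, SPI1 and the second CYBB probe did not.

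Among the receptor genes, CD14 was read at like levels with and without macrophages. Its normalized log2 intensity was 7.65 and 7.75 in CMT-U27 co-culture and 7.59 and 7.73 in single culture, and 7.77 and 7.84 in P114 co-culture against 7.62 and 7.91 in single culture. The groups overlapped in both lines. The mean log2 ratio was 0.04 ± 0.03 in CMT-U27 and 0.04 ± 0.15 in P114 (SD, n = 2 arrays). Its processed signal lay between 91.33 and 230.8 in all 8 channels, and every spot was well above background.

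CD68, a lysosomal membrane glycoprotein gene, was read at 9.77 and 10.01 in CMT-U27 co-culture, against 9.61 and 9.92 in single culture. In P114 it stood at 9.45 and 9.02 in co-culture and at 9.26 and 9.14 in single culture. CD68 was thus higher in co-culture on both CMT-U27 arrays (0.16 and 0.09) and went opposite ways on the P114 arrays (0.19 and -0.12). The CMT-U27 groups overlapped across arrays, since replicate 1 was dimmer in both cultures. By the software's ratio, CD68 on CMT-U27 stood at 0.13 and -0.08.

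TLR2 had the highest mean ratio of the 10 genes in CMT-U27. The probe A_11_P0000020115 was read at 8.80 and 8.95 in co-culture and at 8.60 and 8.74 in single culture, with log2 ratios of 0.19 and 0.21 (mean 0.20 ± 0.01, 1.15-fold), and the groups did not overlap. Its processed signals were 386.1 and 468.9 in co-culture, against 347.6 and 385.1 in single culture. The probe A_11_P053706 gave 0.16 and 0.14, with processed signals of 173 and 179.6 in co-culture against 140.1 and 136.2 in single culture. At A_11_P052504, the dimmest probe of the gene in CMT-U27, the ratios were 0.07 and 0.02, and the processed signals 33.1 and 27.29 in co-culture against 29.57 and 20.31 in single culture. All 3 probes were thus higher in co-culture on both arrays, with all 6 single-culture spots well above background as well. Of all probes tested, 37.4% were higher in co-culture on both CMT-U27 arrays and 13.2% lower on both. In P114 the first probe was not well above background in either culture, and the mean ratios of the probes were 0.09 ± 0.07, -0.02 ± 0.04 and -0.06 ± 0.01.

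CD86, a ligand of CD28 and CTLA4 on T cells, was lower in P114 co-culture on both arrays. Its log2 intensity was 9.02 and 8.94 in co-culture and 9.37 and 9.29 in single culture, and the groups did not overlap. The log2 ratios were -0.34 and -0.35, and the processed signals 664.1 and 585.4 in co-culture against 917.1 and 773.3 in single culture. In CMT-U27 the gene was not well above background in any channel, with processed signals between 3.247 and 8.794. Both cultures of that line therefore have only a bound for CD86.

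FCER1G had no probe well above background on both arrays of any line and culture. On P114 replicate 1 the probe A_11_P0000019889 had processed signals of 225.7 in co-culture and 228.6 in single culture, while on P114 replicate 2 they were 4.563 and 12.33. On CMT-U27 replicate 1 the signals were 9.117 in co-culture and 18.44 in single culture, and on replicate 2 they were 29.06 and 11.17. The CMT-U27 arrays thus differed in which culture was brighter (software log2 ratios of -1.02 and 1.38). No fold is given for FCER1G in CMT-U27, since 1 of the 4 channels measured it.

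**Figure D3:**
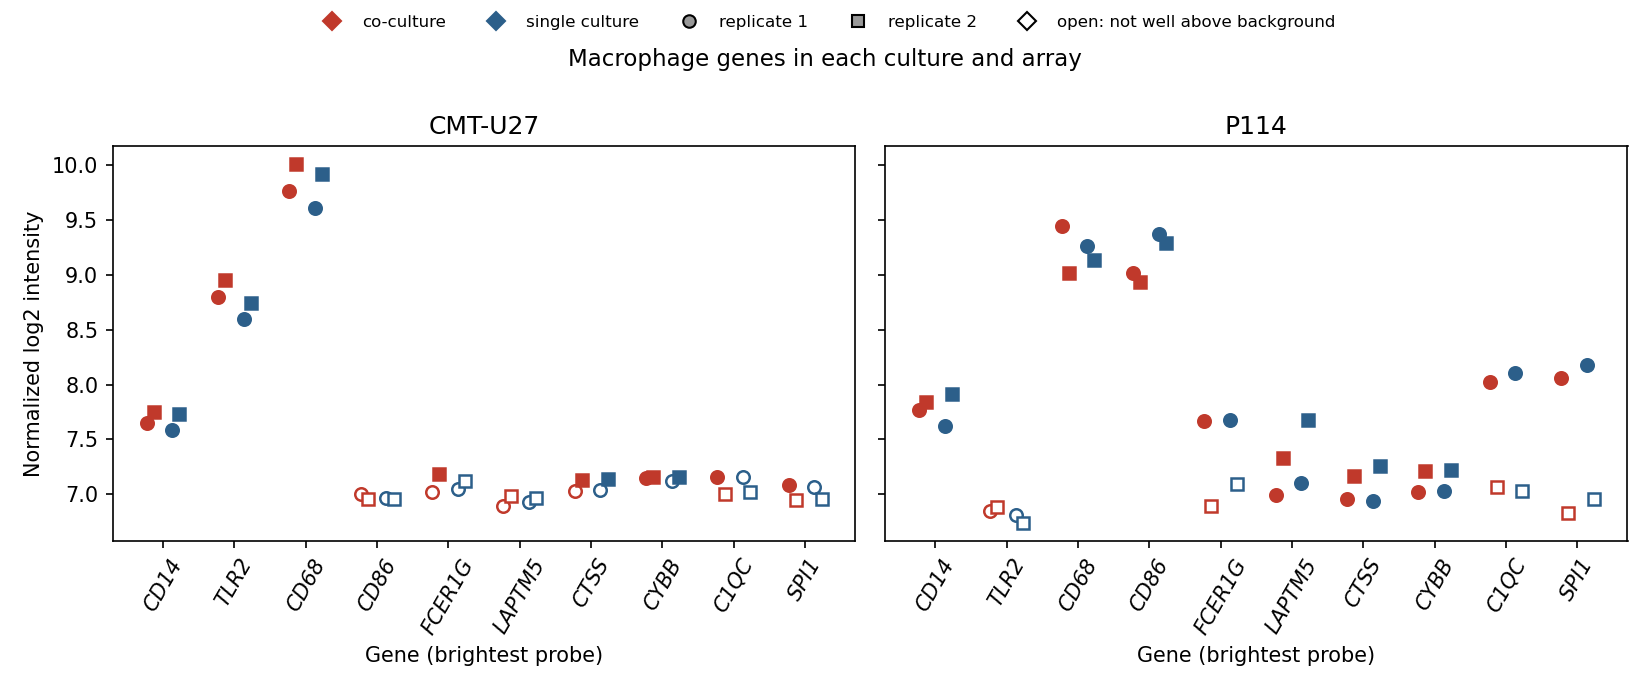
Normalized log2 intensity of each gene at its brightest probe, with CMT-U27 in the left panel and P114 in the right; red marks are co-culture, blue marks single culture, circles replicate 1, squares replicate 2, and open marks were not well above background. CD86 is filled at about 9 in P114 alone, TLR2 is filled in CMT-U27 alone, and C1QC and SPI1 are filled near 8 on P114 replicate 1 in both cultures.

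The lysosomal, oxidase and complement genes were dim in CMT-U27. LAPTM5, which encodes a lysosomal transmembrane protein of blood cells, was not well above background at A_11_P0000014556 in any CMT-U27 channel. In P114 that probe was read at 6.99 and 7.33 in co-culture and at 7.10 and 7.68 in single culture, with log2 ratios of -0.10 and -0.34. The single culture was brighter on both P114 arrays, with processed signals of 84.05 and 69.73 in co-culture against 105 and 111.1 in single culture, but the groups overlapped on the log2 scale. The second LAPTM5 probe, detected in all 4 P114 channels, had ratios of 0.00 and -0.01 there. The probes therefore differed in P114, and that second probe was flagged in CMT-U27 once in each culture.

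CTSS, the gene of the lysosomal protease cathepsin S, had log2 ratios of -0.01 and 0.00 in CMT-U27 and of 0.01 and -0.09 in P114. It was detected on replicate 2 of CMT-U27 in both cultures, with processed signals of 25.27 in co-culture and 24.54 in single culture, and on neither channel of replicate 1. All 4 P114 channels detected it, with signals of 47.77 and 30.33 in co-culture against 45.28 and 33.27 in single culture. The order of the cultures was thus different on the P114 arrays.

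After normexp and loess, CYBB was close to equal between cultures in both lines at A_11_P0000034628. Its processed signals were 27.79 and 31.91 in CMT-U27 co-culture, against 20.23 and 33.16 in single culture, and 82.91 and 37.38 in P114 co-culture, against 87.59 and 36.14 in single culture. The mean log2 ratios were 0.01 ± 0.02 and -0.01 ± 0.00, and by the software 0.20 ± 0.36 and -0.02 ± 0.09. On CMT-U27 replicate 1 the probe was well above background in co-culture alone, with a software log2 ratio of 0.46. The second CYBB probe was detected on P114 replicate 1 alone, in both cultures.

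C1QC stood out at a single spot. At A_11_P0000030996 on CMT-U27 replicate 1, the processed signal was 129.1 in co-culture and 16.53 in single culture, where it was not well above background. The software still flagged that single-culture signal as positive and significant. The software's log2 ratio was 2.97, and 0.34 after normexp and loess, so the size of the difference is not known. On replicate 2 of that line the signals were 6.867 and 3.066, not well above background in either culture. The other C1QC probes on replicate 1 had 21.35 in co-culture against 20.04 in single culture, and 2.622 against 3.791. One of 3 probes of the gene thus carried the difference, on 1 of 2 arrays. No fold over both arrays is given, since 1 of the 4 channels measured it.

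The surroundings of that C1QC spot were looked up after its value was seen. The local background beside it in the co-culture channel (Cy5) was 77, against a median of 40 over the array, and 10 of 45220 spots of that channel, this one included, had a local background of 77 or more. Its 6 nearest spots had Cy5 backgrounds between 51 and 74. In the single-culture channel (Cy3) the local background was 30, against a median of 28. The part of the raised background in the spot's signal was not tested.

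In P114, C1QC behaved as FCER1G did. The probe A_11_P193453 had processed signals of 275.9 in co-culture and 333.9 in single culture on replicate 1, and of 10.72 and 10.22 on replicate 2. The arrays of the line lay further apart than the cultures within an array.

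SPI1 was read at 316 in co-culture and 363.4 in single culture on P114 replicate 1. On P114 replicate 2 it was read at 3.591 and 7.673, where neither was well above background. Its log2 ratios in P114 were -0.12 and -0.13, lower in co-culture on both arrays. In CMT-U27 the processed signals were 14.64 and 3.32 in co-culture and 9.049 and 2.739 in single culture, with log2 ratios of 0.01 and 0.00. The flag in co-culture on CMT-U27 replicate 1 thus came with a signal of 14.64, against 9.049 in the unflagged single culture.

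**Figure D4:**
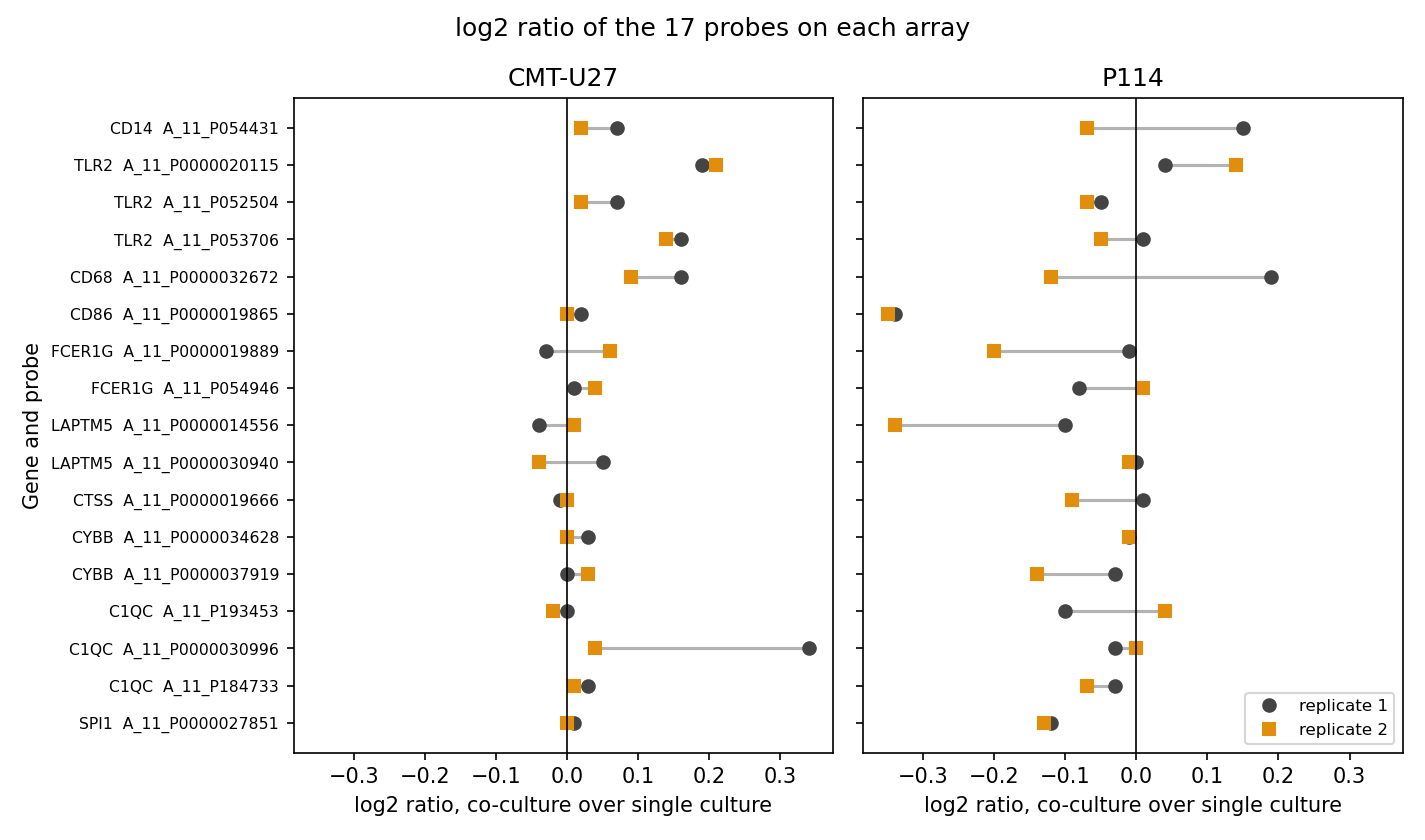
Log2 ratio of co-culture over single culture for each of the 17 probes (rows), with CMT-U27 on the left and P114 on the right; circles are replicate 1, squares replicate 2, and a grey line joins the arrays. TLR2 lies to the right of 0 at all 3 probes in CMT-U27, CD86 lies near -0.35 on both P114 arrays, and C1QC A_11_P0000030996 reaches 0.34 on 1 CMT-U27 array.

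Across the 10 probes that passed the filter, 6 were higher in co-culture on both CMT-U27 arrays, against 37.4% of all probes tested, and 1 was lower on both, against 13.2%. In P114, 1 of 10 was higher on both arrays, against 25.1%, and 4 were lower on both, against 18.2%. The 6 were CD14, CD68, all 3 TLR2 probes and CYBB. The difference in ratio between the lines, CMT-U27 minus P114, was called at 0% of all probes (0 of 28692, 821 at an unadjusted p under 0.05). For the 10 member probes it lay between 0.00 (LAPTM5 A_11_P0000030940) and 0.36 (CD86), a description, since these ratios were known when the genes were listed. Of the 17 probes, 5 had ratios above 0 on both CMT-U27 arrays and below 0 on both P114 arrays, against 5.88% of all probes, and 4 of these 5 lay within 0.08 of 0 in each line. Over all tested probes, the log2 ratios of the P114 arrays correlated at r = -0.149 and those of the CMT-U27 arrays at r = 0.0529, a description across probes.

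Per the labels, single cultures held no added macrophages. Levels there were compared between the lines by a fit of the separate channels after loess and Aquantile, which does not use the contrast of co-culture with single culture. Over all probes it called 4348 of 28692 (15.2%; 2304 higher and 2044 lower in CMT-U27). Each line had its own arrays and scan, which cannot be told apart from the line. The flags of the genes in each line were known when they were listed. The CD86, TLR2, LAPTM5 and CTSS probes passed the filter through 1 line alone, the line in which they were detected on both arrays, so their values are given as a description with no test.

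CD86 was read at 6.97 ± 0.01 in CMT-U27 single culture and at 9.33 ± 0.05 in P114 single culture (SD, n = 2 arrays each). It was not well above background in CMT-U27, where the bound on this scale was 5.15-fold lower. Such a bound sets a dim probe on each array to its own level or to the channel's lowest level well above background, whichever is higher. For CD86 its own level was the higher, so the bound equals the fitted 5.15-fold. TLR2 went the other way at A_11_P0000020115, with 8.67 ± 0.10 in CMT-U27 and 6.78 ± 0.05 in P114, where it was not well above background. On this scale it was at least 3.46-fold higher in CMT-U27. At A_11_P053706, TLR2 stood at 7.87 ± 0.01 in CMT-U27 and 6.87 ± 0.08 in P114, where 1 of 2 arrays measured it. The dimmer TLR2 probe A_11_P052504 stood at 7.19 ± 0.06 in CMT-U27 and 7.04 ± 0.22 in P114, so the probes of the gene disagree in size. With loess but no Aquantile, where levels are not set equal between arrays, the fitted log2 difference of CMT-U27 minus P114 was -1.98 in place of -2.36 for CD86, and 2.35 and 1.48 in place of 1.89 and 1.00 for those first TLR2 probes.

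CD14, CD68 and CYBB were detected in both lines, and none of these 3 passed the test. CD68 stood at 9.77 ± 0.22 in CMT-U27 and 9.20 ± 0.09 in P114, a log2 difference of 0.57 ± 0.28 SE, with an adjusted p in limma of 0.254. Without P114 replicate 1 the CD68 difference was 0.63, and without P114 replicate 2 it was 0.50. Without CMT-U27 replicate 1 it was 0.72, and without CMT-U27 replicate 2 it was 0.41. These fits had no dye term. With all 4 arrays and no dye term, the difference was 0.57, with an adjusted p in limma of 0.0358. CD14 differed by -0.11 and CYBB by 0.01. LAPTM5 stood at 6.95 ± 0.03 in CMT-U27, not well above background, and at 7.39 ± 0.41 in P114, while CTSS stood at 7.09 ± 0.07 and 7.10 ± 0.22.

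Other macrophage genes were read by the same flags. CSF1R, the receptor that macrophages need to survive, TYROBP, the adaptor that partners several myeloid receptors, the C1q chain C1QA and the pan-leukocyte phosphatase PTPRC were well above background on 0 of 2 CMT-U27 arrays in co-culture and on 0 of 2 in single culture. In P114 each was detected on 1 of 2 arrays in both cultures. Of all probes, 89.4% (co-culture) and 91.7% (single culture) were detected on P114 replicate 1, and 60.4% and 61.6% on P114 replicate 2. On the CMT-U27 arrays the share of all probes was 57.9% to 65.7%. C1QB, the remaining C1q chain, was detected on 1 of 2 arrays in each culture of both lines. The scavenger receptor CD163 was detected on 0 of 2 CMT-U27 arrays in either culture, and on 2 of 2 P114 arrays in both, with a mean log2 ratio of -0.02 ± 0.01.

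Of 21 other macrophage surface genes on the array, 18 were detected on no CMT-U27 array in co-culture and 18 on none in single culture. In P114 those counts were 4 in co-culture and 1 in single culture. Of the 21, P114 replicate 1 detected 17 in co-culture and 20 in single culture, against 89.4% and 91.7% of all probes. P114 replicate 2 detected 4 and 3, against 60.4% and 61.6%. CMT-U27 replicate 1 detected 3 and 2, against 65.7% and 57.9%. CMT-U27 replicate 2 detected 3 and 3, against 61% and 64.5%. Among 13 other secreted and lysosomal macrophage genes, 5 were detected on no CMT-U27 array in co-culture and 7 in single culture, and in P114 0 in co-culture and 1 in single culture. Of 13 pan-leukocyte genes, 5 were detected on no CMT-U27 array in each culture, and 1 on no P114 array in each. The share of all probes detected on no array of a line was not counted. The shares on each array are those above. Of the 13 secreted and lysosomal genes, P114 replicate 1 detected 13 in co-culture and 12 in single culture, and P114 replicate 2 detected 6 and 7. CMT-U27 replicate 1 detected 7 and 5, and CMT-U27 replicate 2 detected 6 and 6. For the 13 pan-leukocyte genes the counts were 12 and 12, 8 and 8, 8 and 7, and 7 and 8 on the same arrays in that order. Summed over 57 macrophage and pan-leukocyte genes, the 10 included, the processed signal of co-culture was 0.941 and 0.948 of that of single culture on the CMT-U27 arrays and 0.975 and 1 on the P114 arrays. Such a sum is weighted by its brightest genes. Summed over the receptor genes CD14, TLR2, CD68, CD86 and FCER1G alone, it was 1.08 and 1.02 in CMT-U27 and 0.988 and 0.843 in P114. Over LAPTM5, CTSS, CYBB and C1QC it was 0.97 and 0.937 in CMT-U27 and 0.858 and 0.777 in P114. In CMT-U27 the sums of these 4 genes were dim, at 59 against 60 and 68 against 73. Of the 4, 2 were well above background in co-culture on each CMT-U27 array, and 0 and 2 in single culture. For SPI1 the ratio of the cultures was 1.62 and 1.21 in CMT-U27, with 1 of those 4 channels well above background. In P114 it was 0.87 and 0.468.

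No gene of these lists passed the test in either line (0 called). In the rule used for naming, the largest ratios among the secreted and lysosomal genes were those of GPNMB in P114 (0.32 ± 0.07), a lysosomal glycoprotein, the lysosomal protease LGMN in P114 (0.17 ± 0.17), the matrix protease MMP9 in CMT-U27 (0.17 ± 0.01) and the lipid carrier APOE in CMT-U27 (0.08 ± 0.04). The surface receptor MERTK stood at 0.02 ± 0.02 in CMT-U27. Among pan-leukocyte genes ARHGDIB stood at -0.33 ± 0.27 in P114 and the GTPase RAC2 at -0.21 ± 0.07 in CMT-U27, with CORO1A and HCLS1 at 0.06 ± 0.02 and 0.05 ± 0.02 in CMT-U27. All of these, MERTK in single culture of CMT-U27 excepted, were detected on both arrays of the line in both cultures.

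Of 13 partner genes of the 10 on the array, 8 passed the filter, with median log2 ratios of 0.02 in CMT-U27 and 0.01 in P114, and 0 were called. MYD88, the adaptor through which TLR2 signals, had mean log2 ratios of 0.15 ± 0.13 in CMT-U27 and 0.22 ± 0.02 in P114. CYBA, which forms the oxidase membrane complex with CYBB, stood at 0.17 ± 0.07 in CMT-U27 and 0.15 ± 0.21 in P114. CD80, which like CD86 binds CD28, had -0.02 ± 0.04 in CMT-U27 and 0.17 ± 0.22 in P114, and CD28 itself at -0.09 ± 0.04 in P114.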

How the data were processed

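Per the file headers, each of the 4 deposited files is 1 two-colour array read by Agilent Feature Extraction 10.10.1.1 (10.7.3.1 per the submitters' processing notes), with linear intensity values and 0 or 1 flags per spot and probes placed on CanFam3.1. The authors' log10 ratio, per the file headers, is Cy5 over Cy3, background-subtracted and dye-normalized by the software. The authors' series-wide values, also deposited, are the same log10 ratio (largest gap 0, median 0 in each column) and were used as an alternative.

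Mean spot intensities were corrected with normexp (offset 50) and loess, with 1417 control spots at weight 0. Marked spots (non-uniform or population outlier) were left out, spots of a probe were averaged, and ratios were turned to log2 of co-culture over single culture. A probe entered the test if any line and culture combination had it well above background on each of its arrays (28732, of which 40 were lost to marked spots). limma 3.58.1 in R 4.3.3 fitted all 4 arrays with a coefficient per line and a dye term, leaving 1 residual and 2.76 prior degrees of freedom. The fit of separate channels used an intraspot correlation of 0.937. p-values were adjusted over all tested probes. The number of arrays limits the precision. All probes of the 10 genes are named, each gene shown by its brightest. Of the other lists, up to 4 genes each are named by the largest ratio with the same sign on both arrays among detected probes, and CSF1R, CD163, PTPRC, TYROBP, C1QA, C1QB, EPCAM and CD44 always. Members and lists were chosen with earlier results of these data known. All 10 symbols stand in the RefSeq table of UU_Cfam_GSD_1.0, used for names only. The fit was tested on simulated data. Alternatives changed background correction, normalization, filter, flags, dye term, detection rule and arrays. Figures were drawn with matplotlib 3.10.9 in Python 3.11.15.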

Additional observations from a re-analysis of the deposited data

Results flagged for a closer look

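Of the 17 probes, 5 had a log2 ratio above 0 on every CMT-U27 array and below 0 on every P114 array, as did 5.88% of all probes. TLR2 A_11_P052504 stood at 0.05 in CMT-U27 and -0.06 in P114, and CYBB A_11_P0000034628 at 0.01 and -0.01. CYBB A_11_P0000037919 stood at 0.01 and -0.08, C1QC A_11_P0000030996 at 0.19 and -0.02, and C1QC A_11_P184733 at 0.02 and -0.05. These 3 did not pass the filter on dim probes. The ratios of all 5 were known when the genes were listed, so their difference between the lines is a description.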

How the results depend on the processing

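The count of called probes was 0 in each line and for the difference between them. In CMT-U27 it became 12 with no background correction, 16 with an offset of 10 (chosen after seeing the data), 1 with probes well above background in all 8 channels, and 17343 with median centring in place of loess. In P114 it became 5 with median centring and 4 with an offset of 10. For the difference it became 1 with no background correction, 12448 with median centring and 7 with an offset of 10. Leaving out each array in turn gave 0 to 17 in CMT-U27 (17 without CMT-U27 replicate 1), 0 to 64 in P114 (64 without P114 replicate 2) and 0 to 61 for the difference (61 without P114 replicate 2, 8 without CMT-U27 replicate 1). In those fits the lone array of a line is assumed to vary like the others, and there is no dye term. In single culture the 4348 calls became 0 with loess but no Aquantile and 9369 with no dye term, and lay between 3676 and 15411 with an array left out (11812 without P114 replicate 1, 15411 without P114 replicate 2). The cause was not tested.

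Median centring moved the median over all tested probes to 0.68 in CMT-U27 and 0.16 in P114, relative to which 8 and 9 of the 10 genes lay lower. As many tested probes lie below a median as above it, and C1QC, FCER1G and SPI1 were not among those tested. Without loess a dim probe is not set against others of like brightness. The share lying lower among probes of like brightness was not counted, so these counts are a description. The median of the 10 genes in CMT-U27, 0.01, became 0.10 with the software's log ratio and with the series value table, and -0.25 with median centring. Single genes moved more. With the software's ratio, 15 of 20 gene and line means moved by more than the SD of their arrays, by up to 0.87. LAPTM5 in CMT-U27 went from -0.01 to -0.88 and TLR2 in P114 from 0.09 to 0.92, each not well above background in that line. In P114, -0.03 lay between -0.10 and -0.01 with an array left out (-0.10 without P114 replicate 1).

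A first rule asked for a mean signal above the 95th percentile of 153 negative controls. By it the 18 and 13 flags in CMT-U27 (co-culture and single culture) became 28 and 29 of 34, against 82% and 81.4% of all probes. By the flag for a positive and significant signal they became 26 and 27, against 79.8% and 78.4% of all probes. The excess in co-culture was not kept under either rule. With an array left out, the 18 and 13 flags lay between 8 and 10 in co-culture and between 5 and 8 in single culture. In P114 the 22 in each lay between 7 and 15. Each log2 ratio sets both cultures on the same array against each other, so the fit of ratios is paired within arrays. Arrays could not be paired with one another, because the labels give no replicate numbers.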
